A study of Mus musculus with 39 samples.

Results

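Mesoderm, the middle germ layer, leaves the epiblast through the primitive streak at gastrulation and is then sorted along the mediolateral axis into paraxial, intermediate and lateral plate mesoderm. Each of these is marked by its own transcription factors, and the receptor PDGFRA, which binds platelet-derived growth factors, is made by most nascent and paraxial mesoderm. Described here are 9 such patterning genes: *Foxc1*, *Foxc2*, *Foxf1*, *Meox1*, *Tcf15*, *Pdgfra*, *Hand2*, *Osr1* and *Alx4*. They were chosen by name with earlier results of these data known, so shares of all genes given beside them are not a test of the choice. All 9 were found by symbol among the 47643 genes of the count tables.

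The epiblasts came from matings between CD1 mice heterozygous for a *Stat3* allele in which a neomycin resistance gene replaces some exons, and each library was made from 1 epiblast, the pluripotent layer that forms the embryo proper. Embryos were not treated, and the extraembryonic ectoderm and visceral endoderm were taken off by hand, the former being used for genotyping. At embryonic day (E) 5.5 the *Stat3* null epiblasts numbered 4 and the WT 2. The E6.5 group held 8 null with 9 WT, and the E7.5 group 3 null with 9 WT. EpiSCs, cell lines derived from the postimplantation epiblast and grown on fibronectin in N2B27 medium with XAV-939, FGF2 and activin A, gave 1 library for each of null lines 2 and 6 and WT lines 8 and 13, so that a genotype rests on 2 lines. Levels are given in CPM, the counts of a gene scaled to the same total in each library. A count of 0 allows for up to 3 counts, which corresponded to 0.0235 to 0.131 CPM depending on the library.

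Total counts per library ran from 22941210 to 38635127 at E5.5, from 27913392 to 79013960 at E6.5, from 25793920 to 41655234 at E7.5 and from 63445877 to 127583699 in EpiSCs. At E7.5 the nulls held 37143484 to 41655234 counts and the WT epiblasts 25793920 to 39477197. The highest WT total was that of WT 3, and the other 8 held 36002498 or fewer. The part of depth in the E7.5 comparison of genotypes was not tested. *Stat3* was lower in null than WT epiblasts at E7.5, at 1.22 to 1.48 CPM against 4.80 to 25.3 CPM, and reads on exons that the allele keeps still count towards it. At E6.5 the genotypes overlapped, at 1.41 to 7.59 CPM in null and 5.84 to 27.2 CPM in WT (edgeR adjusted p = 0.334). At E5.5 *Stat3* was at 9.21 to 22.65 CPM in null and at 39.3 and 49.4 CPM in WT (edgeR adjusted p = 0.999). E5.5 null 1 held *Pou5f1*, the gene of the pluripotency factor OCT4, at 0.654 CPM, where the remaining E5.5 libraries held 100.6 CPM or more, so it goes against its label as epiblast. E7.5 WT 3 held *Pou5f1* at 595.5 CPM, the highest of the E7.5 WT libraries, and *T*, the streak gene brachyury, at 5.45 CPM, where the other 8 held 78.5 CPM or more. Counts of called members that rest on these libraries are given with and without them. Both libraries were singled out by values in these data. WT 3 is the lowest E7.5 WT epiblast in every member, so results without it lean towards a higher WT level. Over the 10 genes used as markers of visceral endoderm, whose top gene by level was *Apob*, the summed level at E7.5 was 89.7 to 283 CPM in null and 396 to 4210 CPM in WT epiblasts, with no gene of the list at 0 in a whole group.

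The forkhead members share a DNA-binding domain, and *Foxc1* and *Foxc2* are close enough there that short reads could be placed on either gene. The most alike 60 coding bases of *Foxc1* and *Foxc2*, and the stretch of *Foxf1* nearest to them, are shown from the GENCODE vM21 transcripts with the bases that differ from *Foxc1* in capitals.
Foxc1: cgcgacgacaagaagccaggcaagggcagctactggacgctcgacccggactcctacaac
Foxc2: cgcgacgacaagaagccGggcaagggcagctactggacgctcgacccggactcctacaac
Foxf1: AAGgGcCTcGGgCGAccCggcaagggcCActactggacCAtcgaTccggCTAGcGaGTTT
The stretch begins at coding base 421 of *Foxc1*, 400 of *Foxc2* and 331 of *Foxf1*. *Foxc2* differed from *Foxc1* at 1 of the 60 bases and *Foxf1* at 26. No other gene matched a transcript of *Foxc1* or *Foxc2* at 95% identity over 200 bases, so uncertain placement between the pair is limited to shorter stretches. Among the 9 members the only match of that kind was between *Hand2* and its antisense gene.

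Upstream sequence was found for 3 of the 9 members in the RefSeq promoter table, and it is shown because these 3 are described below as rising together in WT epiblasts. Each line gives the 250 bases before the RefSeq start (GRCm38.p6, plus strand), with CpG dinucleotides in capitals.
Foxc1 (chr13:31806396-31806645): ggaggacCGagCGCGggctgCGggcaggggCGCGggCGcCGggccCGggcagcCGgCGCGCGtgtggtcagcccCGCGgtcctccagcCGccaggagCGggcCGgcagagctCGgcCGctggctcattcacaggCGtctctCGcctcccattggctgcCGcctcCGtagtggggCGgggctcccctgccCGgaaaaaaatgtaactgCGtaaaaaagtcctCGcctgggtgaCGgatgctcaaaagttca
Hand2 (chr8:57320733-57320982): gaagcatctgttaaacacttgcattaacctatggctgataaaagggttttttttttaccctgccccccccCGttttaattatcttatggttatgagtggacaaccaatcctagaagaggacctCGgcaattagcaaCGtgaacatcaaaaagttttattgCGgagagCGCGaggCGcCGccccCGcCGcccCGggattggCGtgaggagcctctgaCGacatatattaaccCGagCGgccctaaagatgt
Pdgfra (chr5:75152001-75152250): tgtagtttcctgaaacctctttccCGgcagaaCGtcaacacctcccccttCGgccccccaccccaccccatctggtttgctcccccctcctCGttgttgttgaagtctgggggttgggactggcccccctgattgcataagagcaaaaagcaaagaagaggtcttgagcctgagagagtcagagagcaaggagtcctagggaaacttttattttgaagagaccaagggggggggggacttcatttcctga
They hold 29 CpGs in *Foxc1*, 15 in *Hand2* and 4 in *Pdgfra*, beside a median of 6 over 32851 promoters of this length, and the last 13 bases of the *Foxc1* window lie in the transcript as GENCODE annotates it. Both strands were searched for the STAT motif TTCNNNGAA, the T-box motif TCACACC, the forkhead motif GTAAACA and TATAAA. None of the 3 windows held any of the motifs, so none overlapped, and they were present in 7.02%, 3.33%, 3.17% and 12.4% of all the promoters. The absence covers these letters in these windows only.

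All 9 members are protein-coding genes of GRCm38 (positions from GENCODE vM21). *Foxc1* (ENSMUSG00000050295.3) lies on chromosome 13 from 31806633 to 31812476 and consists of 1 exon. *Foxf1* (ENSMUSG00000042812.5, chr8:121084386-121088144) and *Foxc2* (ENSMUSG00000046714.7, chr8:121116171-121118895) are 28 kb apart on chromosome 8, and *Hand2* (ENSMUSG00000038193.3, chr8:57320983-57324633) is elsewhere on it. *Meox1* (ENSMUSG00000001493.9, chr11:101877510-101894374) is 938 kb from *Stat3* on chromosome 11, so an effect of the null genotype on *Meox1* and an effect of sequence inherited with the targeted allele cannot be told apart. *Tcf15* (ENSMUSG00000068079.5, chr2:152143561-152149097) and *Alx4* (ENSMUSG00000040310.12, chr2:93642384-93681339) are on chromosome 2, *Pdgfra* (ENSMUSG00000029231.15, chr5:75152292-75198215) on chromosome 5 and *Osr1* (ENSMUSG00000048387.7, chr12:9570116-9581500) on chromosome 12.

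WT epiblasts gained most of these transcripts between E6.5 and E7.5. Of the 9 members, 8 were called higher at E7.5 and *Tcf15* was not, where calling a gene took a log2 fold change beyond 1 in size and a Benjamini-Hochberg adjusted p below 0.05 in edgeR's quasi-likelihood test. Over all 17191 genes tested 5.74% were called higher and 3.09% lower. The plot of CPM by library shows that 7 of the 8 called genes were close to 0 at E6.5, while *Pdgfra* and *Tcf15* were already measurable. Those 7 passed the filter on low counts mainly through the E7.5 libraries, where they are high. For them a higher call was open and a lower call hardly was. In bulk epiblasts, more cells of a type and more RNA per cell cannot be told apart, nor fewer cells and less RNA per cell. Markers of other cell types were higher in the same comparison. All 10 visceral endoderm markers were above 0 (median log2 fold change 0.89, *Ttr* and *Sox17* called), their summed level going from 71.5 to 5240 CPM (median 196) at E6.5 to 396 to 4210 CPM (median 1650) at E7.5. All 6 parietal endoderm markers were above 0 as well (median 0.62, none called), and the part of these markers was not tested. Without E7.5 WT 3 the same 8 members were called (6.95% of genes higher), and *Tcf15* had 1.06 (standard error 0.47, edgeR adjusted p = 0.102).

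**Figure D1:**
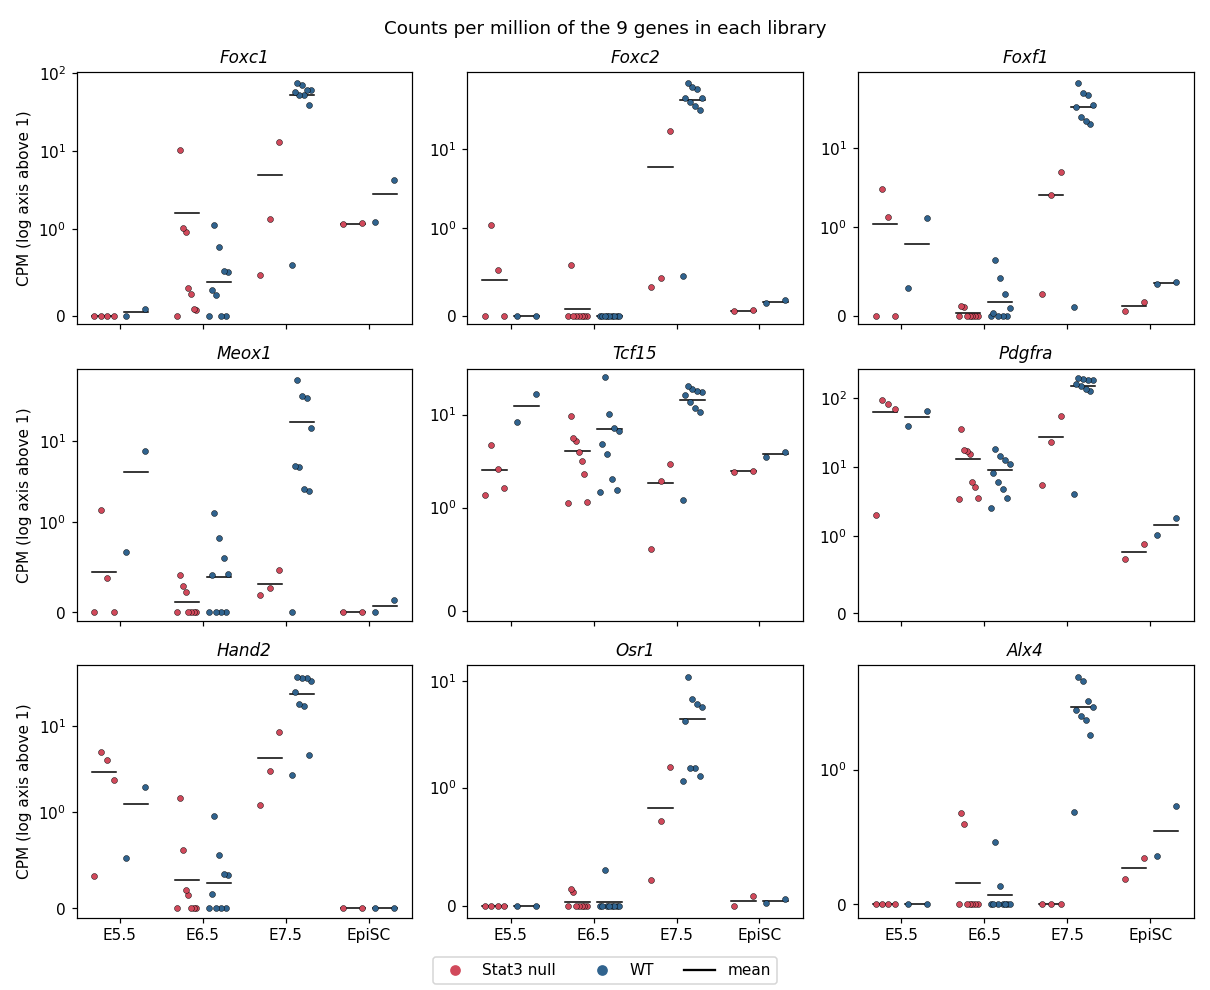
CPM of each of the 9 members in every library, by stage and for EpiSCs, on an axis that is linear up to 1 CPM and logarithmic above; each point is 1 library (red, *Stat3* null; blue, WT) and each bar the group mean. E7.5 WT has the highest group mean for all 9 members. WT 3 is the lowest of its group in all 9, and for *Meox1*, *Tcf15*, *Hand2* and *Osr1* 1 or 2 libraries of other groups lie above the lowest of the other 8.

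*Foxc1* and *Foxc2* encode forkhead factors needed for somite formation in paraxial mesoderm. *Foxc1* was at 0 to 1.12 CPM in E6.5 WT epiblasts (median 0.301) and at 0.583 to 73.6 CPM at E7.5 (median 57.2), a log2 fold change of 7.06 (standard error 0.87, edgeR adjusted p = 3.12e-05). *Foxc2* was not counted once in the 9 E6.5 WT epiblasts and reached 0.456 to 66.9 CPM at E7.5 (median 43.4), a mean at least 547-fold higher than 3 counts per library would give at E6.5 (edgeR adjusted p = 8.25e-05). Every E7.5 WT epiblast had *Foxc2* and none of the E6.5 WT epiblasts did. *Foxf1*, a lateral plate and later visceral mesoderm factor, went from 0 to 0.624 CPM (median 0.0282) to between 0.101 and 64.9 CPM (median 32.7), a log2 fold change of 7.84 (standard error 1.002, edgeR adjusted p = 3.81e-05). For *Foxc1* and *Foxf1*, 8 of the 9 E7.5 WT epiblasts lay above every E6.5 WT epiblast, and E7.5 WT 3 did not.

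*Meox1* marks the early somite and presomitic mesoderm, and *Tcf15* (paraxis) encodes a helix-loop-helix factor that keeps somites epithelial and is also known from the pluripotent epiblast. *Meox1* was at 0 to 1.27 CPM in E6.5 WT epiblasts (median 0.411) and at 0 to 55.7 CPM at E7.5 (median 4.92), with a log2 fold change of 5.41 (standard error 1.197, edgeR adjusted p = 0.00290). *Tcf15* was at 1.45 to 25.3 CPM at E6.5 (median 4.82) and at 1.22 to 20.1 CPM at E7.5 (median 16.3), with a log2 fold change of 0.90 (standard error 0.53, edgeR adjusted p = 0.233). The highest *Tcf15* value of both groups came from E6.5 WT 3. Without that library the log2 fold change was 1.497 (standard error 0.45, edgeR adjusted p = 0.0177), and without the 3 E6.5 WT libraries of over 40000000 counts it was 1.98 (standard error 0.48, edgeR adjusted p = 0.00483), so that all 9 members were then called, against 7.43% and 8.42% of all genes called higher.

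*Pdgfra* was at 2.57 to 18.4 CPM in E6.5 WT epiblasts (median 8.26) and at 4.08 to 197 CPM at E7.5 (median 158), a log2 fold change of 3.92 (standard error 0.55, edgeR adjusted p = 8.93e-05). It was the member with the highest CPM at E7.5 in both genotypes. *Hand2*, a lateral plate and heart field factor, was at 0 to 0.959 CPM at E6.5 (median 0.151) and 2.69 to 37.5 CPM at E7.5 (median 24.9), a log2 fold change of 6.30 (standard error 0.84, edgeR adjusted p = 4.74e-05). *Osr1*, a zinc finger factor of intermediate mesoderm, was at 0 in 8 of the 9 E6.5 WT epiblasts and at 1.14 to 10.99 CPM at E7.5 (median 4.26), a log2 fold change of 6.99 (standard error 1.03, edgeR adjusted p = 6.70e-05). *Alx4*, a homeobox gene of lateral plate mesoderm best known for its role in the limb bud, was at 0 in 7 of 9 at E6.5 and at 0.684 to 5.85 CPM at E7.5 (median 3.08), a log2 fold change of 5.60 (standard error 1.03, edgeR adjusted p = 0.000474). For *Hand2*, *Osr1* and *Alx4* all 9 E7.5 WT epiblasts, WT 3 included, lay above all 9 E6.5 WT epiblasts, as for *Foxc2* and 1.52% of all genes tested. With WT 3 left out this held for 8 of the 9 members, *Tcf15* being the other, and for 6.32% of all genes.

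Divided by the length of annotated exon, the means at E7.5 WT lay between 15.4 ± 7.19 CPM per kb (SD, n = 9) for *Foxc2* and 0.461 ± 0.227 CPM per kb (SD, n = 9) for *Alx4*. In falling order after *Foxc2* came *Pdgfra* at 14.7 ± 5.93, *Tcf15* at 14.5 ± 5.95, *Foxf1* at 13.55 ± 7.87, *Hand2* at 10.005 ± 5.82, *Foxc1* at 8.88 ± 3.73, *Meox1* at 7.68 ± 8.89 and *Osr1* at 2.11 ± 1.63 CPM per kb (SD, n = 9 each). Neighbours among the first 7 in that order differed by less than 1 SD of either gene. Annotated exon length counts every exon of all transcripts, 10024 bases for *Pdgfra*, and a gene whose cells use a shorter transcript is set too low by it.

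**Figure D2:**
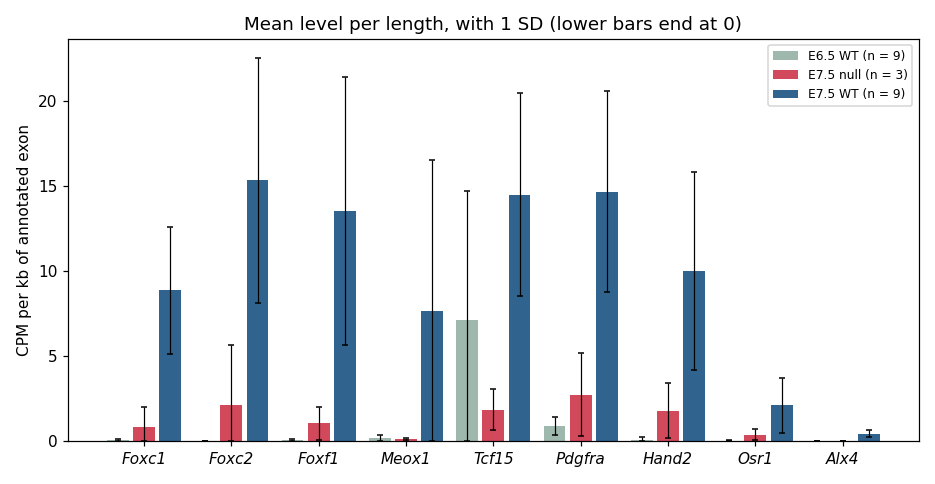
Mean CPM per kb of annotated exon for each member in E6.5 WT (grey), E7.5 *Stat3* null (red) and E7.5 WT (blue) epiblasts, with error bars of 1 SD over libraries that end at 0 where the SD exceeds the mean. *Foxc2*, *Pdgfra*, *Tcf15* and *Foxf1* stand highest in E7.5 WT, *Tcf15* and, lower, *Pdgfra* are visible in E6.5 WT, and *Alx4* is lowest.

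WT epiblasts at E7.5 did not all hold these genes in the same proportion. Leaving aside WT 3, *Pdgfra* differed by 1.55-fold between the highest and the lowest of the 8 epiblasts, *Foxc1* and *Tcf15* by 1.88-fold each and *Foxc2* by 2.17-fold. *Meox1* differed by 23.2-fold, *Osr1* by 8.59-fold and *Hand2* by 8.04-fold. *Meox1* was at 34.0, 55.7, 35.3 and 14.2 CPM in WT 4, 5, 6 and 8, and at 4.77, 2.40, 4.92 and 2.53 CPM in WT 1, 2, 7 and 9. *Osr1* followed the same order at its ends, with 10.99 CPM in WT 5 and 1.28 CPM in WT 2. The epiblasts with the most *Meox1* also held the least *Pou5f1*, at 169, 162 and 195 CPM in WT 4, 5 and 6 against 259 to 465.7 CPM in the other 5 of these 8. *Mesp1*, a factor of nascent mesoderm, was at 8.48, 3.69 and 9.94 CPM in WT 4, 5 and 6 and at 12.3 to 43.9 CPM in those other 5. The visceral endoderm markers summed to 3010, 3780 and 4210 CPM in WT 4, 6 and 7. In WT 1, 2, 5, 8 and 9 they summed to 761 to 2030 CPM. *Foxf1* was at 46.7 to 64.9 CPM in the former and 20.0 to 34.6 CPM in the latter. *Hand2* was at 36.1 to 37.5 CPM and 4.66 to 33.9 CPM. None of the other members was higher in all of WT 4, 6 and 7. The part of these markers in the spread was not tested.

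The comparison of *Stat3* null with WT epiblasts at E7.5 asked whether the mutants had these transcripts at the same day of development. All 9 members had a lower mean in the 3 null epiblasts, between 5.26-fold lower for *Osr1* and 55.7-fold lower for *Meox1* among the 8 that null epiblasts held at all, but 1 of 9, *Alx4*, was called lower by edgeR, which called 1.09% of the 19680 genes tested lower and 0.0813% higher. The fitted log2 fold changes of the other 8 lay between -2.30 and -5.69, and 7 of them had an unadjusted p under 0.05, as 19.7% of all genes had. DESeq2 called 8 of the 9 lower (3.25% of its 28950 genes), and without E7.5 WT 3 edgeR called 8 of the 9 lower (4.55% of 19462 genes). In both cases *Foxc2* was the member that was not called. WT 3 was singled out by its values and is the lowest WT epiblast in every member. Leaving it out therefore favours lower calls in null, here and in the values by gene below. Without E7.5 null 2, edgeR called none of the 9 and no gene at all. *Foxc2*, *Foxf1*, *Meox1*, *Osr1* and *Alx4* passed the filter on low counts only with the WT epiblasts, where they are high. That favours lower values in null for them.

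*Alx4* was not counted in any of the 3 E7.5 null epiblasts, while the 9 WT epiblasts held between 27 and 177 counts, or 0.684 to 5.85 CPM. It therefore passed the filter on low counts through the WT epiblasts alone, and a higher call in null was not open to it. The WT mean of 3.26 ± 1.61 CPM (SD, n = 9) was at least 43.1-fold higher than 3 counts per null library would give (edgeR adjusted p = 0.00693). *Alx4* was the only member whose groups did not overlap with WT 3 kept, as for 2.45% of all genes tested. The gene overlaps *Ext2* on the other strand by 20312 bases without sharing exonic bases, and the strand setting used in counting is not given in the sources used here. *Ext2* was at 20.9 to 25.6 CPM in null and 21.7 to 48.4 CPM in WT epiblasts.

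*Meox1* was at 0.469, 0.189 and 0.264 CPM in null epiblasts 1, 2 and 3. The 9 WT epiblasts ran from 0 in WT 3 to 55.7 CPM, and the other 8 all held at least 2.40 CPM. Its log2 fold change was -5.69 (standard error 1.92, edgeR adjusted p = 0.130), and -5.86 without WT 3 (standard error 1.48, edgeR adjusted p = 0.0260). *Meox1* thus had no null epiblast above 0.469 CPM, a level that lies within the range of E6.5 WT epiblasts.

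*Tcf15* was at 2.96, 1.94 and 0.600 CPM in null 1, 2 and 3, against 1.22 CPM in WT 3 and 10.7 to 20.1 CPM in the other 8 WT epiblasts. The fitted log2 fold change of -2.86 (standard error 0.69) just missed the threshold (edgeR adjusted p = 0.05003), and without WT 3 it was -3.02 (standard error 0.40, edgeR adjusted p = 0.000166). In *Tcf15*, unlike *Foxc1*, *Foxc2*, *Foxf1*, *Pdgfra*, *Hand2* and *Osr1*, null 3 was the lowest of the nulls and not the highest.

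*Foxc1* was at 0.469, 1.35 and 12.96 CPM in null 1, 2 and 3, and *Foxc2* at 0.321, 0.431 and 16.9 CPM. In the 8 WT epiblasts other than WT 3 *Foxc1* was at 39.1 CPM or more and *Foxc2* at 30.8 CPM or more, while WT 3 held 0.583 and 0.456 CPM. Null 3 therefore stood well above null 1 and null 2 in both genes and still below those 8 WT epiblasts. The log2 fold change of *Foxc1* was -3.30 (standard error 1.26, edgeR adjusted p = 0.178) and that of *Foxc2* -2.74 (standard error 1.37, edgeR adjusted p = 0.309). Without WT 3 they were -3.47 (standard error 0.85, edgeR adjusted p = 0.0236) and -2.91 (standard error 1.07, edgeR adjusted p = 0.112). Without null 3 they were -5.75 and -6.70, with edgeR adjusted p of 0.129 and 0.117.

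*Foxf1* was at 0.247, 2.59 and 4.92 CPM in null 1, 2 and 3, against 0.101 CPM in WT 3 and 20.0 to 64.9 CPM in the other 8 WT epiblasts. Its fitted log2 change was -3.57 (standard error 1.30, edgeR adjusted p = 0.158), and -3.74 without WT 3 (standard error 0.76, edgeR adjusted p = 0.00812). *Pdgfra* was at 5.63, 22.9 and 54.1 CPM in the nulls, against 4.08 CPM in WT 3 and 128 to 197 CPM in the other 8. Its log2 fold change was -2.33 (standard error 0.95, edgeR adjusted p = 0.207), and -2.50 without WT 3 (standard error 0.56, edgeR adjusted p = 0.0164). In both genes null 3 was highest and null 1 lowest of the nulls, and every null epiblast was above WT 3.

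*Hand2* was at 1.21, 3.02 and 8.52 CPM in the nulls and at 2.69 to 37.5 CPM in WT, where WT 1 at 4.66 CPM also fell below null 3. The fitted log2 fold change was -2.38 (standard error 0.87, edgeR adjusted p = 0.157), and -2.53 without WT 3 (standard error 0.73, edgeR adjusted p = 0.0418). *Osr1* was at 0.716, 0.215 and 1.56 CPM in the nulls and at 1.14 to 10.99 CPM in WT. Its fitted log2 change was -2.30 (standard error 0.81, edgeR adjusted p = 0.126), and -2.42 without WT 3 (standard error 0.77, edgeR adjusted p = 0.0463). These are the members in which null and WT epiblasts overlapped even without WT 3, whereas the other 7 did not overlap then, as for 8.42% of all genes tested. Of those 7, *Foxc2*, *Foxf1*, *Meox1* and *Alx4* passed the filter on low counts only with the WT epiblasts. *Hand2os1*, listed in the tables as *AV026068* and antisense to *Hand2* with 461 shared exonic bases, held 0 to 9 counts in the nulls and 0 to 38 in WT.

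The other E7.5 epiblast markers moved beside these differences. The summed visceral endoderm markers did not overlap between null and WT epiblasts, as given above, and 2 of the 10, *Afp* and *Sox17* (the latter also a definitive endoderm gene), were called lower in null (median log2 fold change of the list -3.28, beside -0.02 over all genes tested), and 6 without WT 3. Of the 6 parietal endoderm markers, *Lama1*, *Col4a1* and *Col4a2* were called lower, and their summed level was 352 to 492 CPM in null and 495 to 1400 CPM in WT epiblasts. The 6 extraembryonic ectoderm markers summed to 6.82 to 12.0 CPM in null and 15.1 to 59.3 CPM in WT, led by *Rhox5*, which was called lower. The 9 decidua and blood markers summed to 11.1 to 35.6 CPM and 3.76 to 25.5 CPM, with 0 called. WT 3 had the lowest visceral endoderm sum of the WT epiblasts, and the part of these markers in the results of the 9 members was not tested. All 6 epiblast genes, *Pou5f1* among them, had a log2 fold change above 0 in null epiblasts and none was called (median 1.29), while without WT 3 5 of them were called higher.

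Genes that act before and beside the members were read from lists of the same pathway. Of 12 streak and nascent mesoderm genes, 9 had a log2 fold change above 0 in E7.5 null epiblasts (median 1.06), and only *Msgn1*, a presomitic mesoderm factor, was called, being counted in 8 of the 9 WT epiblasts at 11.2 to 27.6 CPM and in no null epiblast (edgeR adjusted p = 0.0452). Without WT 3 *Msgn1* and *Tbx6* were called lower and *Eomes*, *Fgf8* and *Gsc* higher. *Mesp1* was at 10.96, 31.2 and 75.9 CPM in null 1, 2 and 3 and at 2.74 to 43.9 CPM in WT, and *T* at 50.9, 71.6 and 170 CPM in null and 5.45 to 237 CPM in WT. Null 3 was highest and null 1 lowest for these streak genes, as for *Foxf1*, *Foxc1*, *Foxc2*, *Pdgfra* and *Hand2*. *Tbx6*, which acts with *Msgn1* in presomitic mesoderm, showed a log2 fold change of -2.67 (standard error 0.95, edgeR adjusted p = 0.145).

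Of 11 paraxial and somite genes tested, 9 had a log2 fold change below 0 (median -1.81), and *Aldh1a2*, which makes retinoic acid in paraxial mesoderm, was called lower, with 0.659 ± 0.315 CPM (SD, n = 3) in the nulls beside 110 ± 68.1 CPM (SD, n = 9) in WT epiblasts (log2 fold change -7.27, standard error 1.61, edgeR adjusted p = 0.0494). All 12 lateral plate and cardiac genes had a log2 fold change below 0 (median -2.97). In WT from E5.5 to E6.5, *Gata6*, *Tbx20* and *Bmp4* of this list were called lower, of 9 tested (2.63% of all genes). Some of its genes were thus present before E7.5. Visceral endoderm markers were below 0 there in 9 of 10, and the part of other tissues in this list was not tested. At E7.5 *Tbx5*, a heart and forelimb factor, was called lower in null. It had no counts in the nulls and 3.32 ± 2.32 CPM (SD, n = 9) in WT (edgeR adjusted p = 0.0337). *Twist1*, a mesenchyme factor, was also called lower, with 2.91 ± 2.17 CPM (SD, n = 3) in the nulls, 24.5 ± 9.11 CPM (SD, n = 9) in WT epiblasts and a log2 fold change of -2.98 (standard error 0.69, edgeR adjusted p = 0.0479). None of the 4 intermediate mesoderm genes tested was called, and 2 were above and 2 below 0. Without WT 3 *Aldh1a2*, *Tbx5* and *Twist1* were again called lower. The calls then came to 2 of 11 paraxial and 5 of 12 lateral plate and cardiac genes, all lower. Of the genes listed as intermediate, *Pax2* was then called lower and *Lhx1* higher, as the streak genes *Eomes*, *Fgf8* and *Gsc* were. In bulk epiblasts neither call can be assigned to intermediate mesoderm cells.

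Among the paralogues of the members and the ligands of PDGFRA, 12 were tested at E7.5 and *Tcf21* was called lower, with no counts in the nulls and 2.41 ± 1.85 CPM (SD, n = 9) in WT (edgeR adjusted p = 0.0216). Like *Msgn1* and *Tbx5*, *Tcf21* passed the filter on low counts through the WT epiblasts alone, and a higher call in null was not open to it. Without WT 3 *Tcf21*, *Alx1*, *Pdgfrb* and *Pdgfa* were called lower. The ligand *Pdgfa* showed a log2 fold change of -1.15 (standard error 0.49, edgeR adjusted p = 0.212) and *Pdgfc* one of 0.05 (standard error 0.40, edgeR adjusted p = 0.972). The related receptor *Pdgfrb* had one of -1.53 (standard error 0.60, edgeR adjusted p = 0.181). In WT epiblasts *Pdgfa* and *Pdgfrb* were called higher at E7.5 than at E6.5, as *Pdgfra* was, with log2 fold changes of 2.34 (standard error 0.43, edgeR adjusted p = 0.000595) and 3.02 (standard error 0.61, edgeR adjusted p = 0.00127). *Pdgfc* had one of 1.09 there (standard error 0.69, edgeR adjusted p = 0.275). In that comparison 5 of 8 paraxial genes, 9 of 11 lateral plate and cardiac genes, 1 of 3 intermediate genes and 5 of 10 paralogues and ligands were called higher, while of 11 streak genes *Tbx6* was called higher and *Eomes* and *Fgf8* lower. Without E7.5 WT 3 the counts called higher were 7 of 9, 10 of 11, 1 of 3, 6 of 12 and 4 of 12 streak genes, 3 of which were called lower.

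The genes around *Foxf1* and *Foxc2* were read too. *Fendrr*, a long noncoding RNA that lies 1.27 kb from *Foxf1* on the other strand, was at 0, 0 and 0.312 CPM in the E7.5 nulls and at 3.07 ± 3.11 CPM (SD, n = 9) in WT, with a log2 fold change of -4.73 (standard error 1.69, edgeR adjusted p = 0.137). *Foxl1*, 9.04 kb beyond *Foxc2*, was at 0, 0 and 0.552 CPM in the nulls and at 1.64 ± 1.08 CPM (SD, n = 9) in WT, with a log2 fold change of -3.04 (standard error 1.31, edgeR adjusted p = 0.209). In both genes null 3 was the only null epiblast with counts. *Mthfsd*, a folate enzyme gene between *Foxf1* and *Foxc2*, held 11.7 ± 4.41 CPM (SD, n = 3) in the nulls, where WT epiblasts held 19.1 ± 4.99 CPM (SD, n = 9), and its log2 difference was -0.63 (standard error 0.26, edgeR adjusted p = 0.198). Neither *Fendrr* nor *Foxl1* was counted in any E6.5 WT epiblast.

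**Figure D3:**
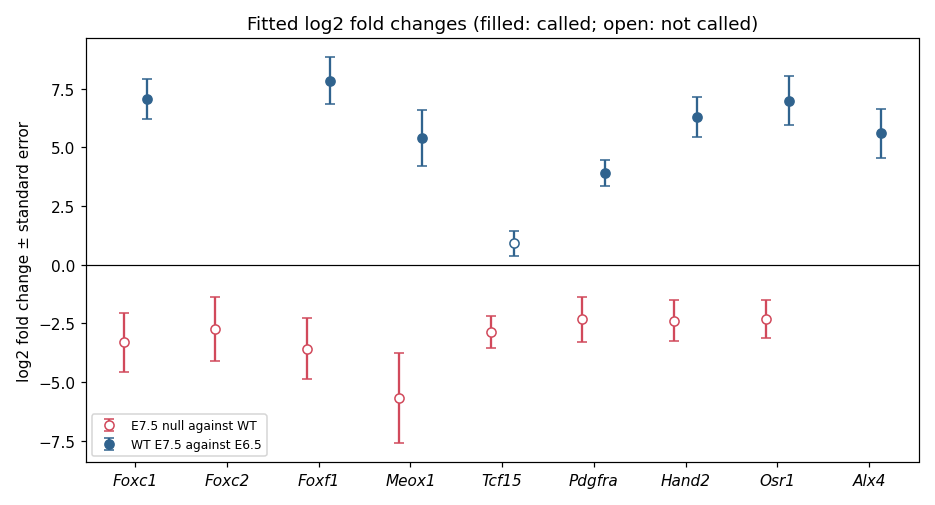
Fitted log2 fold change of each member with its standard error for E7.5 *Stat3* null against WT (red) and for E7.5 against E6.5 in WT (blue), filled where called; both use the same E7.5 WT libraries. *Alx4* in red and *Foxc2* in blue are left out because 1 group had no counts, and the remaining points run from -5.69 to -2.30 in red and from 0.90 to 7.84 in blue.

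E7.5 null epiblasts were next set beside E6.5 WT epiblasts, 1 day younger. Of 8 members tested none was called, against 0.081% of genes called higher and 0.081% called lower, with 7 of the 8 at an unadjusted p under 0.05 (8.87% of all genes) and none of the 7 that DESeq2 tested called by it. Of the visceral endoderm markers 8 of 10 were below 0 here (median -2.41), with none called, and their part was not tested. *Foxc2* was at 0 in every E6.5 WT epiblast and above 0 in all 3 E7.5 nulls, with edgeR adjusted p = 0.0867. It passed the filter on low counts through the nulls alone. *Foxc1*, *Foxf1*, *Pdgfra* and *Osr1* each had 2 of 3 nulls above the highest E6.5 WT epiblast, and *Hand2* and *Foxc2* had all 3. Over all genes tested 8.84% had at least 2 nulls above that range and 2.95% all 3. *Hand2* showed a log2 fold change of 3.95 (standard error 1.23, edgeR adjusted p = 0.276) and *Foxf1* one of 4.06 (standard error 1.38, edgeR adjusted p = 0.343). *Meox1*, *Tcf15* and *Alx4* had no null epiblast above the E6.5 WT range. *Tcf15* showed a log2 fold change of -1.98 (standard error 0.89, edgeR adjusted p = 0.543).

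Within the null genotype, 6 members could be tested between E6.5 and E7.5 and none was called, where 0.0668% of genes were called higher and 0.036% lower, with 2 of the 6 at an unadjusted p under 0.05 (8.13% of all genes). DESeq2 called *Foxf1*, which edgeR's filter had removed, higher (0.229% of its genes), and none of the other 5 members it tested. The visceral endoderm markers were below 0 in 9 of 10 (median -3.60), the extraembryonic ectoderm markers in 5 of 5 tested (median -3.65) and the parietal endoderm markers in 6 of 6 (median -1.35), with none called, and their part was not tested. *Hand2* showed a log2 fold change of 3.79 (standard error 1.52, edgeR adjusted p = 0.523), *Pdgfra* of 1.06 (standard error 0.71, edgeR adjusted p = 0.831) and *Tcf15* of -1.14 (standard error 0.81, edgeR adjusted p = 0.860). At E7.5, 12.96 CPM of *Foxc1* in null 3 stood beside 10.2 CPM in E6.5 null 3. Without E7.5 null 3 the log2 fold change of *Foxc1* turned from 1.60 to -0.82.

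Whether the change from E6.5 to E7.5 differed between the genotypes was tested as an interaction in the 29 libraries of these stages. All 9 members had a value below 0 and none was called, where 0.258% of genes were called lower and 0.185% higher, with 5 of 9 at an unadjusted p under 0.05 (14.1% of all genes) and 3 of 9 called by DESeq2. The DESeq2 calls were *Foxc1*, *Pdgfra* and *Alx4*, where it called 1.59% of its genes lower. In edgeR the difference was -5.46 (standard error 1.97, adjusted p = 0.175) for *Foxc1*, -2.86 (standard error 1.02, adjusted p = 0.170) for *Pdgfra*, -2.06 (standard error 0.94, adjusted p = 0.311) for *Tcf15* and -0.99 (standard error 2.30, adjusted p = 0.949) for *Foxf1*, all on the log2 scale. *Alx4* came closest (edgeR adjusted p = 0.0760), and without E7.5 WT 3 *Alx4* and *Pdgfra* were called (edgeR adjusted p = 0.0410 and 0.0488, with 1.2% of genes called lower). Of the 10 visceral endoderm markers 9 were below 0 in the interaction too (median -4.86) with none called, and their part in these values was not tested.

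At E6.5 the null and WT epiblasts could be compared in 3 members, *Foxc1*, *Tcf15* and *Pdgfra*, and none was called, as no gene was (0.0% of 17095 in either direction), with none at an unadjusted p under 0.05 (8.27% of all genes) and none called by DESeq2. *Tcf15* was at 1.13 to 9.75 CPM in null (median 3.59) and 1.45 to 25.3 CPM in WT (median 4.82), a log2 fold change of -0.83 (standard error 0.58, edgeR adjusted p = 0.802). *Pdgfra* was at 3.53 to 35.7 CPM in null (median 10.9) and 2.57 to 18.4 CPM in WT (median 8.26), a log2 fold change of 0.51 (standard error 0.48, edgeR adjusted p = 0.876). *Foxc1* was at 0 to 10.2 CPM in null (median 0.287) and 0 to 1.12 CPM in WT (median 0.301), a log2 fold change of 2.09 (standard error 1.28, edgeR adjusted p = 0.749) that was -0.024 without null 3. Null 3 had the highest *Foxc1*, *Pdgfra* and *Hand2* of the E6.5 nulls, and its visceral endoderm markers summed to 6370 CPM, the highest of the 17 E6.5 libraries. The other 6 members were at 0 in at least 1 library of each genotype at E6.5, with no value over 1.45 CPM. Over the E6.5 nulls the extraembryonic ectoderm markers summed to 19.8 to 772 CPM, against 9.29 to 106 CPM in WT, and the part of any of these markers was not tested.

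At E5.5 *Pdgfra* had the highest mean CPM of the members, at 2.02, 70.5, 82.1 and 95.1 CPM in null 1 to 4 and at 65.2 and 39.9 CPM in WT 1 and 2. *Pdgfra* is also a gene of the primitive endoderm lineage. The visceral endoderm markers summed to 27, 9510, 11200 and 6760 CPM in null 1 to 4 and to 5230 and 6830 CPM in the WT epiblasts, so the library that lacks *Pou5f1* had the least of both. The extraembryonic ectoderm markers summed to 1130 CPM in that library and to between 117 and 435 CPM in the other E5.5 libraries, and their part was not tested. *Hand2* was highest in that same library, at 5.04 CPM, with 2.35, 4.03 and 0.337 CPM in null 2 to 4 and 1.99 and 0.527 CPM in WT.

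Of the 6 members tested between genotypes at E5.5 none was called, as no gene was (0.0% of 18690 in either direction), with 1 of 6 at an unadjusted p under 0.05 (2.5% of all genes) and none of the 5 that DESeq2 tested called by it. That 1 was *Tcf15*, at 1.36, 4.66, 2.58 and 1.63 CPM in null 1 to 4 and 8.31 and 16.7 CPM in the 2 WT epiblasts, so that every null lay below both WT epiblasts, as for 6.9% of all genes tested. Its log2 fold change was -2.29 (standard error 0.61, unadjusted p = 0.00685, edgeR adjusted p = 0.999), and -2.09 without null 1 (standard error 0.57, edgeR adjusted p = 0.9997). *Pdgfra* showed a log2 fold change of 0.23 (standard error 1.17, edgeR adjusted p = 0.999) with null 1 and 0.63 (standard error 0.27, edgeR adjusted p = 0.9997) without it. Leaving out null 1 called no member and no gene, and put 2 of 6 members, *Tcf15* and *Pdgfra*, at an unadjusted p under 0.05 (4.46% of all genes). *Meox1* was at 7.44 and 0.668 CPM in the WT epiblasts and at 0.381, 0, 1.39 and 0 CPM in the nulls. *Osr1* and *Alx4* had no counts in any of the 6 E5.5 libraries, and *Foxc1* had 2 counts in 1 of them.

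From E5.5 to E6.5 in WT epiblasts 6 members were tested and 1, *Pdgfra*, was called lower, against 2.63% of 20763 genes called lower and 2.52% called higher. The fitted log2 fold change was -2.49 (standard error 0.52, edgeR adjusted p = 0.0117), DESeq2 called it too (3.38% of its genes lower), and the E5.5 group is 2 epiblasts. The summed visceral endoderm markers were lower too, at 5230 and 6830 CPM at E5.5 and between 71.5 and 5240 CPM at E6.5 (median 196), and none of the 10 was called. The E6.5 WT epiblast with the highest sum, WT 3, held 14.4 CPM of *Pdgfra*. The highest *Pdgfra* of its group, 18.4 CPM, was in WT 7 with the lowest sum. E6.5 null 3, 4 and 8, with sums of 4000 to 6370 CPM, held 15.7 to 35.7 CPM of *Pdgfra*. The other E6.5 nulls, with sums of 113 to 991 CPM, held 3.53 to 17.6 CPM. The part of these markers in the lower *Pdgfra* at E6.5 than at E5.5 was not tested. In null epiblasts over the same interval 4 members were tested and none was called, against 0.757% of genes called lower and 1.22% higher, with 3 of 4 at an unadjusted p under 0.05 (18.3% of all genes) and 2 of the 8 that DESeq2 tested called by it (*Foxc1* higher, *Pdgfra* lower; 2.63% and 1.57% of its genes). *Pdgfra* showed a log2 fold change of -2.26 there (standard error 0.78, edgeR adjusted p = 0.132), and without E5.5 null 1 it was called, at -2.64 (standard error 0.59, edgeR adjusted p = 0.0244; 1.25% of genes lower).

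EpiSCs held little of most members. *Hand2* had no counts in any of the 4 lines, which allows up to 0.0235 to 0.0473 CPM, *Meox1* had 17 counts in WT 13 and none in the other 3, and *Osr1* was at 0 to 0.0873 CPM. *Tcf15* was at 2.40 and 2.50 CPM in null lines 2 and 6 and at 3.49 and 3.97 CPM in WT lines 8 and 13. *Foxc1* was at 1.198 and 1.156 CPM in null and 1.24 and 4.31 CPM in WT, and *Pdgfra* at 0.898 and 0.709 CPM in null and 1.83 and 1.07 CPM in WT.

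All 6 members tested in EpiSCs had a log2 fold change below 0 in null lines, and none was called, where 0.0627% of genes were called lower and 0.0434% higher, with 2 of 6 at an unadjusted p under 0.05 (9.09% of all genes) and none called by DESeq2. *Tcf15* showed a log2 fold change of -0.63 (standard error 0.23, edgeR adjusted p = 0.473), *Foxf1* of -1.86 (standard error 0.68, edgeR adjusted p = 0.484) and *Foxc1* of -1.25 (standard error 0.58, edgeR adjusted p = 0.629). Without WT line 8 *Foxc1* was called (log2 fold change -1.87, edgeR adjusted p = 0.0454), from the single line WT 13, where 0.473% of genes were called lower. *Pdgfra*, at 39.9 CPM or more in 5 of the 6 E5.5 epiblasts, was at 1.83 CPM or less in every EpiSC line. Epiblast and EpiSC libraries were made with different kits and their counts came in separate tables, so these levels are set side by side without a test.

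Outside the members, the genes whose log2 CPM over the 35 epiblast libraries was most alike to the members' mean standardized level were *Hoxb1* (Pearson r = 0.972), *Bmp5* (0.968), *Hoxa3* (0.968), *Shh* (0.959) and *Notum* (0.959), of 24117 genes compared. Within the 12 E7.5 libraries the same genes had r of 0.977, 0.962, 0.988, 0.982 and 0.982. Of the streak genes *Msgn1* was the most alike at r = 0.931, and *Eomes* the least at -0.853. These libraries share their stages, and the values describe the libraries and are not a test.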

How the data were processed

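RNA-seq of 35 single epiblasts and 4 EpiSC lines was used. Per the labels and the study's methods, the authors trimmed reads with Trim Galore, aligned them to GRCm38 with HISAT2, counted them per gene with StringTie and deposited raw counts without normalization. The annotation version and strand setting are not given in the sources used here. Members and lists were chosen with earlier results of these data known. Of 47643 genes, 47224 were found in GENCODE vM21. The test was edgeR's two-sided robust quasi-likelihood test (version 4.0.16, R 4.3.3) after TMM scaling and filterByExpr by group (minimum count 10, total 15), and p-values were adjusted by Benjamini-Hochberg over the whole table. Standard errors are the log2 fold change divided by the square root of F. A member was tested where it passed the filter, as stated for each comparison. DESeq2 1.42.0 was an alternative, and its adjusted p stayed missing where its own filter removed a gene. Other alternatives were its size factors in edgeR, no filter on low counts, leaving out genes over 1% of counts, all epiblasts in 1 fit, a replicate block, leaving out each library, and, chosen after the data were seen, leaving out E6.5 libraries over 40000000 counts. The tests were tried on simulated data. Levels are CPM of total counts, and floors of 3 counts cover counting error only. Members are named throughout, and other genes where they were called (up to 3 per list), are paralogues, ligands, neighbours or leading markers, or were among the 5 most alike. *Apob*, *Mesp1*, *Tbx6*, *T*, *Ext2* and *Hand2os1* were named after values were seen. Transcripts were compared by blastn 2.17.0 and figures drawn with matplotlib 3.10.9 in Python 3.11.15.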

Additional observations from a re-analysis of the deposited data

Results flagged for a closer look

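In groups of 4 to 10 epiblasts, 10 of the 31 member and group combinations checked had a library whose distance to its nearest neighbour was large for the range of its group, where chance gives about 5%. The libraries recur across members, and members share their libraries, so these are not separate events.

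At E7.5 WT 3 stood below the rest of its group, with *Foxc1* at 0.583 CPM (next lowest 39.1), *Tcf15* at 1.22 CPM (next 10.7) and *Pdgfra* at 4.08 CPM (next 128). At E6.5 null 3 stood above the other nulls, with *Foxc1* at 10.2 CPM (next highest 1.02), *Pdgfra* at 35.7 CPM (next 17.6) and *Hand2* at 1.45 CPM (next 0.606). E6.5 WT 3 had *Tcf15* at 25.3 CPM (next 10.1). The other 3 are low values beside groups mostly at 0: *Foxc2* at 0.58 CPM in E6.5 null 4, *Osr1* at 0.303 CPM in E6.5 WT 8 and *Alx4* at 0.459 CPM in E6.5 WT 6 (next 0.139).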

How the results depend on the processing

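For counts of called members, 177 values under the alternatives stayed within 1.5 times the reported count and 20 did not. At E7.5, null against WT, the count of 1 became 8 with DESeq2 and 0 with all 35 epiblasts in 1 fit or with a replicate block, and ranged from 0 to 8 on leaving out 1 library. Over all genes, all 35 epiblasts gave 6 called higher and 5 lower of 24126, and the block gave 0 of 19680. From E5.5 to E6.5 in WT the count of 1 became 0 with all 35 epiblasts or the block and 2 without the deepest E6.5 libraries, and ranged from 0 to 1 on leaving out 1 library (0 without WT 1 at E5.5). In null epiblasts the count of 0 became 2 with DESeq2 and 4 with all 35 epiblasts from E5.5 to E6.5 (0 to 1 on leaving out 1 library, the 1 without E5.5 null 1), and 1 with DESeq2 and 2 with all 35 epiblasts from E6.5 to E7.5. For E7.5 null against E6.5 WT the count of 0 became 1 with all 35 epiblasts, where 10 of 24126 genes were called higher and 12 lower. For the interaction, 126 of 21397 genes were called higher and 696 lower without the deepest E6.5 libraries. Without E6.5 WT 3 these were 107 and 359 of 22007. The count of 0 called members became 3 with DESeq2 and 1 without the deepest E6.5 libraries. It ranged from 0 to 2 on leaving out 1 library (1 without E6.5 WT 3, 2 without E7.5 WT 3). In EpiSCs it ranged from 0 to 1. For WT E7.5 against E6.5 it was 8 or 9 throughout. Over all genes from E5.5 to E6.5 in WT, all 35 epiblasts gave 280 called higher and 608 lower of 24126. The block gave 39 and 62 of 20763, and leaving out the deepest E6.5 libraries gave 1063 and 1635 of 19967.

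The direction of 1 member changed in 15 of the single-gene values, none of them called. At E6.5, null against WT, *Foxc1* had a log2 fold change of -0.038 with DESeq2 and ranged from -0.024 to 2.48 on leaving out 1 library, and *Pdgfra* had -0.092 without the deepest libraries. At E5.5 *Foxf1* had -1.30 and *Pdgfra* -2.05 with the replicate block, and they ranged from -0.89 to 1.80 and from -0.11 to 0.67 on leaving out 1 library. *Foxc1* from E5.5 to E6.5 in WT had -3.36 with the block, where its E5.5 counts are 2 and 0. In null epiblasts from E6.5 to E7.5 *Foxc1* ranged from -0.82 to 3.69. *Meox1* in E7.5 null against E6.5 WT had 4.09 with the block and ranged from -0.80 to 0.10. In the interaction *Foxf1* had 0.65 and *Meox1* 0.61 with the block. The cause was not tested. Replicate numbers were not used to pair the epiblasts in the reported tests. Deviations of same-numbered null and WT libraries correlated at -0.002 to 0.31 at E5.5, -0.17 to 0.35 at E6.5 and -0.27 to 0.06 at E7.5. Differently numbered libraries were not compared, so these values cannot tell whether libraries of the same number were processed together. The E6.5 libraries of over 40000000 counts were null 1, 2 and 3 and WT 1, 2 and 3. With 2 WT epiblasts at E5.5, 3 nulls at E7.5 and 2 lines per genotype, and with several members under 10 counts before E7.5, depth and number limit what could be detected.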
